A study of Mus musculus with 12 samples.

Results

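Sprouty and Spred proteins are feedback inhibitors of growth factor signaling. A growth factor that binds its receptor tyrosine kinase activates Ras, Raf, MEK and ERK in turn, and ERK signaling in many cell types induces Sprouty genes, whose products then damp the same route. Spred proteins carry a Sprouty-related domain and bring neurofibromin, a protein that switches Ras off, to the membrane. ERK signaling in the forebrain is well known for its part in the response of neurons to cocaine and in synaptic plasticity.

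The 7 mouse genes of these families, Spry1, Spry2, Spry3, Spry4, Spred1, Spred2 and Spred3, were taken by name from the tables of 3 time points, out of 39430 gene names found in all 3. Each gene stood on 1 locus per table. They were measured by RNA-seq of poly(A) RNA from the prefrontal cortex of 10 week old male C57BL/6 J mice. Intraperitoneal cocaine, at 20 mg/kg each day, or saline alone was given over 14 days. Tissue was taken at 2 h, at 24 h or at 7 d from the final dose, and each of the resulting 6 groups had 2 libraries, with the tissue of 5 mice pooled in each. All cell types of several frontal areas (prelimbic, orbital and frontal association cortex) are mixed in these dissections, and in such tissue a change in the number of cells of a type and a change of RNA per cell cannot be told apart.

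Each group has 1 pooled FPKM (a fragment count scaled to transcript length and library size) per gene in the authors' tables, calculated over its 2 libraries. No spread between libraries could therefore be computed, no test was made, and the number of fragments behind each value is unknown. Differences are given as the log2 ratio of cocaine over saline at the same time point, on the log2(FPKM + 0.1) scale, and are set beside the same ratio in the 13101 named genes with a mean of at least 1 FPKM over the 6 groups. All 7 members passed this minimum. A ratio is described as past the threshold where the higher value exceeded the lower by at least 25%, or 0.32 on the log2 scale, which is a statement of size. The tables of the 3 time points were normalized separately, so levels set side by side across time points are a description.

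RefSeq (GRCm38.p6) gave a promoter for 5 of the 7 members. The 250 bases before the start are shown for Spry2 and Spred1, both past the threshold at 2 h, because they carry the feature that most of these promoters shared, a high number of CG pairs. The capitals mark each CG pair, read 5′ to 3′ on the strand of the gene. Spry2 is on the minus strand at chr14:105896820-105897069 and Spred1 on the plus strand at chr2:117120821-117121070.
Spry2: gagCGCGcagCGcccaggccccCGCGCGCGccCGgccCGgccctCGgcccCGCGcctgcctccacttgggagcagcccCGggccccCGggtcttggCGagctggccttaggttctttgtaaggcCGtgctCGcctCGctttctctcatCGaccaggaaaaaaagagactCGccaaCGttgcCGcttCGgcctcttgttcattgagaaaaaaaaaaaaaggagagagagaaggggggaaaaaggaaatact
Spred1: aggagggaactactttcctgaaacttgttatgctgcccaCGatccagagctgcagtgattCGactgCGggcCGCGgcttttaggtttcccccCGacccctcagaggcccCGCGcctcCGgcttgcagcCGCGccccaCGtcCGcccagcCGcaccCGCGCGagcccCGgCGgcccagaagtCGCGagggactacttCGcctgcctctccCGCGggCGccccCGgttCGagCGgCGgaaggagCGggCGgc

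The Spred1 promoter held 31 CG pairs, the Spry2 and Spry1 promoters 23 each, the Spred2 promoter 12 and the Spred3 promoter 6. The median over 27025 RefSeq promoters of the same length was 6. The windows of Spred2 (chr11:19924192-19924441) and Spred3 (chr7:29168648-29168897) lay inside the loci measured for these genes. The Spred1 window ended at 117121070 and did not adjoin the measured locus, which started at 117121373. The counts of Spred1, Spred2 and Spred3 thus describe the annotated start that was used, and not the outer end of the locus. The Spry1 promoter was as rich in CG pairs as that of Spry2, and the ratio of Spry1 at 2 h was the smallest of the family. Sequence motifs were searched on both strands without regard to overlap: the AP-1 site (TGANTCA, in 6.87% of all promoters), the core of the cAMP response element (TGACG, in 17.9%), an ETS core (CCGGAA, in 12.2%) and the SRF CArG box (in 1.4%). The single match in the 5 promoters was a cAMP response element core on the minus strand of Spred2, in capitals here within 30 bases at chr11:19924379-19924408.
Spred2: ccgctgggaagaCGTCAtcgcttccgccct
These 30 bases also lie near the start of a Spred2 transcript in GENCODE, where they are part of the 5′ UTR. No match says only that these letters are not in these windows.

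The loci were spread over the genome. In the authors' tables, whose positions are those of GRCm38, Spry1 lay on chromosome 3 (37639946 to 37644598 at 2 h), Spry2 on chromosome 14 (105891948 to 105896819) and Spry4 on chromosome 18 (38586267 to 38601268). Spry3 lay on the scaffold GL456233.1 (101351 to 106395). Spred1 was on chromosome 2 (117121373 to 117182279), Spred2 on chromosome 11 (19924142 to 20024040 at 2 h) and Spred3 on chromosome 7 (29157226 to 29169841 at 2 h). The loci spanned from 4653 bases for Spry1 to 99899 bases for Spred2, with 15002 bases for Spry4 and 12616 for Spred3. In the GENCODE transcripts of mouse, the coding length was 942 bases for Spry1, 948 for Spry2 and 903 for Spry4, against 1335 for Spred1, 1314 for Spred2 and 1227 for Spred3.

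The members differed widely in level. Spred1, the gene mutated in human Legius syndrome, was the most abundant, with a mean of 31.98 FPKM over the 6 groups. Spred2 (17.9 FPKM) and Spry2 (16.3 FPKM) followed. The ranges of Spry2 and Spred2 over the 6 groups overlapped, and the lowest value of Spred1, 26.9 FPKM, was below the highest of Spred2, 28.8 FPKM. Spred3, which lacks a working KIT-binding domain, had 6.69 FPKM and overlapped with no other member. Spry1, Spry4 and Spry3 were the lowest, with 2.47, 1.86 and 1.601 FPKM, and the ranges of all 3 overlapped. The 3 Spred genes together made up most of the summed level, with 58.2 of 77.4 FPKM in saline at 2 h.

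**Figure D1:**
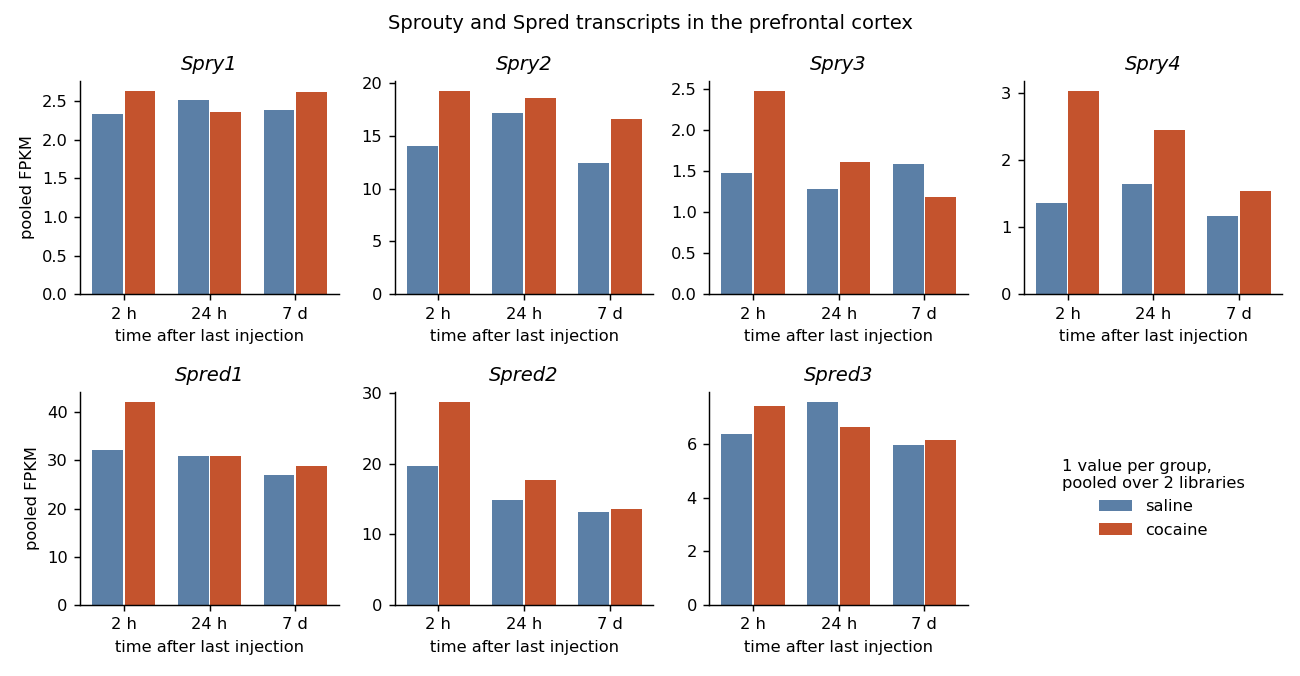
Pooled FPKM of each member (vertical axis, from 0) by time after the last injection, with 1 bar for the saline group and 1 for the cocaine group, and no error bars because each value is pooled over 2 libraries. Cocaine stands above saline for all 7 members at 2 h, and for Spry2, Spry4, Spred1 and Spred2 at all 3 time points (for Spred1 at 24 h by 0.105 FPKM).

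At 2 h after the last injection, all 7 members were higher in cocaine than in saline, and 5 of them, Spry2, Spry3, Spry4, Spred1 and Spred2, were past the threshold. Of all genes, 6.59% were past it and higher in cocaine at this time, 4.82% were past it and lower, and 56.6% had any ratio above 0. Both Spry4 and Spry3 were also past 1.5-fold, as were 1.76% of all genes. The median log2 ratio of the members was 0.45, against 0.02 over all genes.

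Among the Sprouty genes at 2 h, the largest ratio was that of Spry4, which inhibits ERK activation by growth factors, with 1.36 FPKM in saline and 3.03 FPKM in cocaine. Its log2 ratio of 1.10 was exceeded by 52 of the 13101 genes. Spry3 had 1.48 FPKM in saline and 2.47 FPKM in cocaine (log2 ratio 0.70). Spry2, the member best studied for its binding to the ubiquitin ligase Cbl, had 14.04 FPKM in saline and 19.3 FPKM in cocaine (log2 ratio 0.45). For Spry1, by contrast, the levels of 2.33 and 2.63 FPKM lay close together, with a log2 ratio of 0.17.

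Among the Spred genes at 2 h, Spred2 showed the largest ratio, with 19.6 FPKM in saline and 28.8 FPKM in cocaine (log2 ratio 0.55). Spred1 had 32.2 FPKM in saline and 42.2 FPKM in cocaine (log2 ratio 0.39), which was the largest difference in FPKM of the family, at 9.95. Spred3 had 6.38 FPKM in saline and 7.42 FPKM in cocaine and stayed below the threshold, with a log2 ratio of 0.22. Summed over the 4 Sprouty genes, the level was 19.2 FPKM in saline and 27.4 in cocaine, and over the 3 Spred genes it was 58.2 and 78.4 FPKM.

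Low genes scatter more than high ones, so each ratio was also placed among the 655 genes of most similar FPKM (1 of 20 equal groups of all genes by mean level). At 2 h the same 5 members lay above the 95th percentile of their own group, by construction the place of 5% of genes. For Spry2 the 5th and 95th percentiles of like genes were -0.21 and 0.28, and 7 of 655 genes had a higher ratio. For Spred1 8 of 655 genes were higher, and for Spred2 11 of 655. For the scarcer Spry3 the range was wider, from -0.53 to 0.51, and 13 of 655 like genes were higher.

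**Figure D2:**
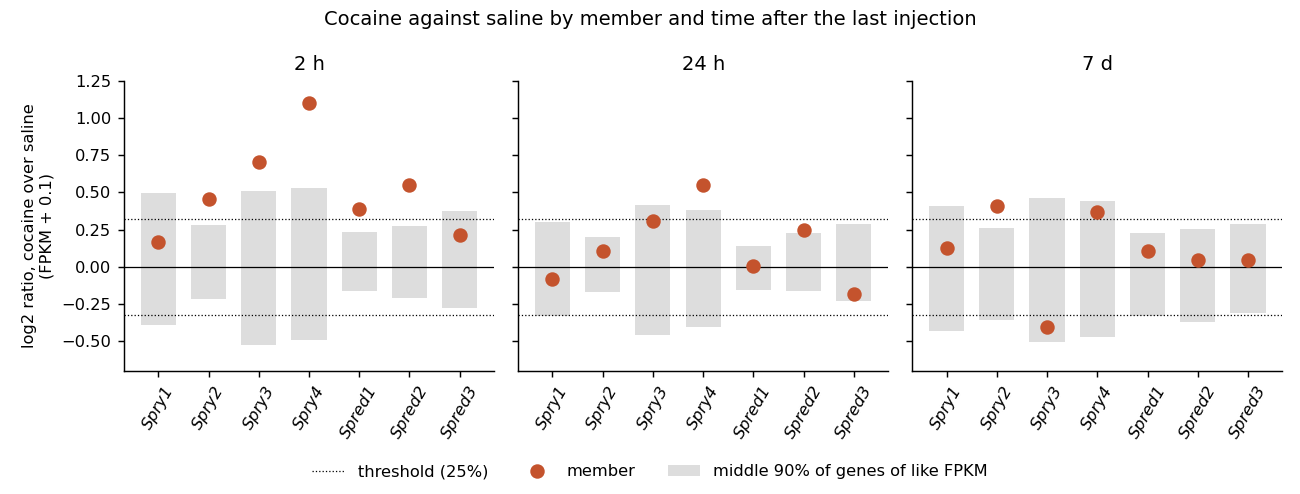
Log2 ratio of cocaine over saline (vertical axis, FPKM + 0.1) for each member at 2 h, 24 h and 7 d (points), with grey bars from the 5th to the 95th percentile of the 655 genes of most similar FPKM and dotted lines at the threshold of 25%. At 2 h the points of 5 members lie above their grey bars, at 24 h those of Spry4 and Spred2, and at 7 d that of Spry2.

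At 24 h Spry4 again had the largest ratio. It had 1.64 FPKM in saline and 2.44 FPKM in cocaine (log2 ratio 0.55) and was the 1 member of 7 past the threshold, at a time when 3.3% of all genes were past it and higher in cocaine and 3.04% past it and lower. The median log2 ratio of the members was 0.11, against 0.01 over all genes. Spry3 came next, with 1.28 and 1.61 FPKM (log2 ratio 0.31, just under the threshold), and then Spred2, with 14.9 and 17.7 FPKM (log2 ratio 0.24). Spred2 was above the 95th percentile of its like genes (0.22), whereas Spry3 was not. For Spry2, the saline level was at its highest of the 3 time points, 17.2 FPKM, and cocaine had 18.6 FPKM (log2 ratio 0.11). Spred1 had 30.8 and 30.9 FPKM, and its log2 ratio of 0.00 was exceeded by 51.3% of all genes. Both Spry1 (2.51 and 2.36 FPKM) and Spred3 (7.57 and 6.65 FPKM) were lower in cocaine, with log2 ratios of -0.08 and -0.18.

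At 7 d the members split. The ratios of Spry2 and Spry4 were past the threshold and higher in cocaine, as were 4.79% of all genes, and that of Spry3 was past it and lower, as were 6.93% of all genes. Spry2 had 12.4 FPKM in saline and 16.6 FPKM in cocaine, and its log2 ratio of 0.41 was exceeded by 5 of 655 like genes. Spry4 had 1.17 and 1.53 FPKM (log2 ratio 0.37), inside the range of its like genes, which reached 0.45. Spry3 had 1.59 FPKM in saline and 1.18 FPKM in cocaine (log2 ratio -0.40), inside a range that began at -0.51. With a pseudocount of 1 FPKM, Spry4 (0.22) and Spry3 (-0.25) were no longer past the threshold at 7 d. The Spred genes were near saline, with log2 ratios of 0.10 for Spred1, 0.04 for Spred2 and 0.04 for Spred3. The median of the 7 members was 0.10, against -0.01 over all genes.

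The log2 ratio at 7 d was larger in longer transcripts over all genes (a Spearman's rho of 0.478 over 11008 genes that are not independent of one another, against 0.157 at 2 h and 0.0885 at 24 h). Of the genes with a length that were past the threshold at 7 d, 43.1% were higher in cocaine as deposited, and 55.3% once each ratio was centred on genes of like length. Genes of like length had a median ratio of -0.06 for Spry2, 0.07 for Spry4 and 0.09 for Spred1 at 7 d. Spry2 thus stood further from its like genes after centring (0.47), while Spry4 came to 0.30, under the threshold, and Spred1 to 0.02. No length was found for Spry3. The part of the length trend in these values was not tested.

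**Figure D3:**
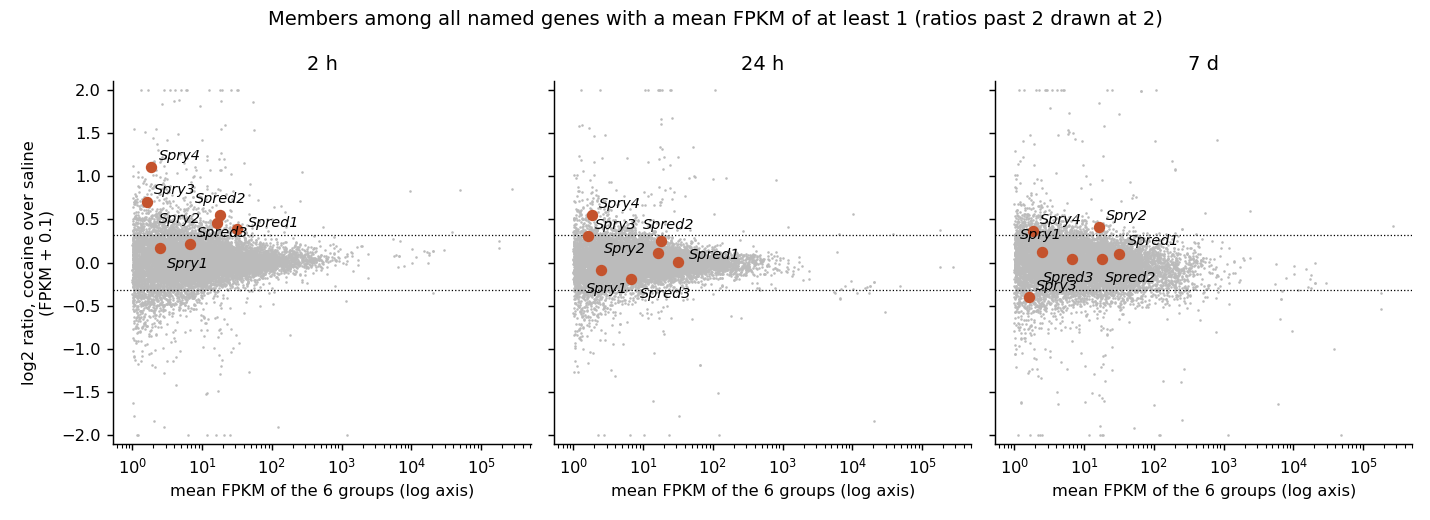
Log2 ratio of cocaine over saline (vertical axis, FPKM + 0.1) against the mean FPKM of the 6 groups (horizontal log axis) for 13101 genes (grey) and the 7 members (orange), at each time point, with dotted lines at the threshold of 25%. At 2 h all 7 members lie above 0, and at 7 d Spry2 and Spry4 lie above the upper line and Spry3 below the lower.

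Across the time points, the ratio of Spry4 was largest at 2 h and smaller at 24 h and 7 d (log2 ratios of 1.10, 0.55 and 0.37). Spred2 had the same order, with 0.55, 0.24 and 0.04. Spry2 instead had nearly equal ratios at 2 h and 7 d (0.45 and 0.41) and a smaller ratio at 24 h (0.11). For all 7 members the ratio was larger at 2 h than at 24 h, by 0.25 for Spry1 to 0.55 for Spry4. It was also larger at 2 h than at 7 d, by 0.04 for Spry1 and Spry2 to 1.11 for Spry3. The median ratio of all genes fell as well, with 0.02 at 2 h, 0.01 at 24 h and -0.01 at 7 d. The share of all genes with a larger ratio at 2 h was not computed. The differences between time points have no error and were not tested.

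The saline groups themselves differed between time points. They were normalized separately and differ in time after the last injection, so their range is a description and no measure of error. The median gene moved by only -0.02 on the log2 scale from 24 h to 2 h in saline. Over the 3 saline groups, Spred2 ranged from 13.1 FPKM at 7 d to 19.6 FPKM at 2 h, a log2 difference of 0.58, which is as large as its cocaine ratio at 2 h. For Spry2 the saline range of 0.47 likewise matched its ratio of 0.45. The saline range was 0.45 for Spry4 and 0.29 for Spry3, both smaller than their ratios at 2 h of 1.10 and 0.70, and 0.26 for Spred1, against a ratio of 0.39. For Spred3 the range of 0.34 was larger than its ratio of 0.22, and for Spry1 it was 0.10 against 0.17. For each of the 7 genes, the 3 cocaine values overlapped with the 3 saline values. Neither the saline range nor the share of genes with such an overlap was computed over all genes.

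The other genes of the route were described by lists chosen for their roles, with earlier results of these data known. A high median of a list is therefore a description and no independent support. Of 88 genes listed, 79 reached the minimum level, and at 2 h 14 of these were past the threshold and higher in cocaine and 1 was lower, with a median log2 ratio of 0.11. Over all genes these shares were 6.59% and 4.82%, and the median was 0.02. The highest median was that of 13 genes of ERK response and feedback, with 8 past the threshold, all higher, and a median of 0.38. They include Dusp6, a phosphatase of ERK (14.1 FPKM in saline and 32.6 in cocaine, log2 ratio 1.198), Dusp4 (1.48 and 5.51 FPKM, 1.83) and Dusp5 (1.78 and 4.52 FPKM, 1.30). Egr1 and Fos, transcription factor genes switched on by ERK among other signals, had log2 ratios of 1.53 and 2.76, and Ier3 had 0.62. The Ets factor Etv5, often induced along with Sprouty genes by FGF, had 20.3 FPKM in saline and 26.5 in cocaine (0.38), whereas Etv1 and Etv4 had -0.12 and -0.08.

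The remaining lists of the route had lower medians at 2 h, from 0.08 to 0.16. Of 11 receptor tyrosine kinases none was past the threshold, and the largest ratio was that of Igf1r (0.28). Among 10 ligands, Pdgfb was higher (7.76 and 13.3 FPKM, log2 ratio 0.77) and Fgf22 lower (1.18 and 0.883 FPKM, -0.38). The adaptor Crkl was the 1 gene past the threshold of 15 adaptor and Ras genes (0.40), and of 12 genes of the Raf, MEK and ERK steps 2 were past it, with Rps6ka2 highest (0.39). Of 10 genes whose proteins bind or modify Sprouty or Spred, 2 were past it: Mknk2, an ERK-activated kinase (9.005 and 12.3 FPKM, log2 ratio 0.44), and Cbl (3.41 and 4.47 FPKM, 0.38). None of 8 Ras GTPase-activating protein genes was past it, with Rasa1 highest (0.30), and Nf1, which encodes the Spred partner neurofibromin, had a log2 ratio of 0.07.

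At 24 h, 5 of the 79 genes were past the threshold and higher in cocaine, all of them in the list of ERK response and feedback, and 1, Egfr (2.32 and 1.65 FPKM, log2 ratio -0.47), was lower, against 3.3% and 3.04% of all genes. The highest ratios were those of Fos (1.205) and Egr1 (0.99), followed by Dusp5 (0.68), Dusp6 (0.49) and Dusp4 (0.38). At 7 d, 10 genes were higher and 3 lower, with a median of 0.14, against 4.79% and 6.93% of all genes and a median of -0.01. The highest ratios were again those of Fos (1.49), Egr1 (0.76) and Dusp5 (0.58). The higher genes outside the list of ERK response and feedback included Ksr2, a scaffold of Raf and MEK (2.24 and 3.36 FPKM, log2 ratio 0.56), the adaptor gene Shc3 (0.43), the receptor gene Fgfr3 (0.42), and the Ras GTPase-activating protein gene Nf1 (0.42), while Fgf22 was again lower (-0.58). Dusp6 had 0.35 at 7 d.

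**Figure D4:**
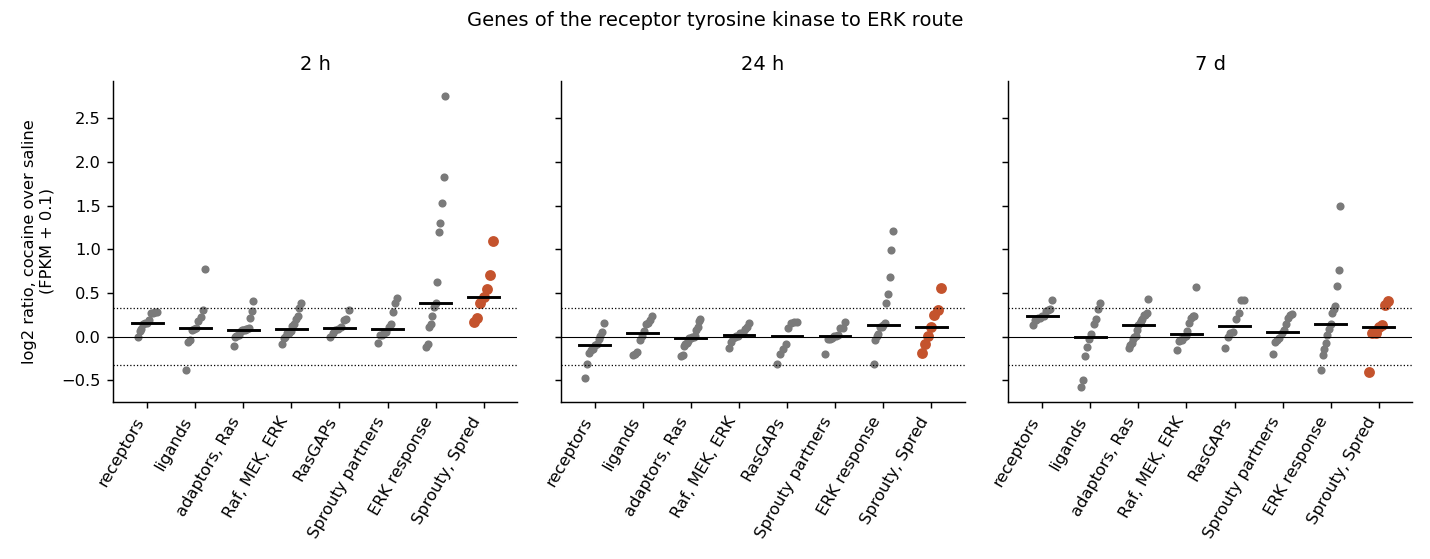
Log2 ratio of cocaine over saline (vertical axis, FPKM + 0.1) for each gene of 7 lists of the route from receptor to ERK (grey points) and for the 7 Sprouty and Spred genes (orange), with black lines at the list medians and dotted lines at the threshold of 25%. At 2 h the medians of the members and of the ERK response genes, 0.45 and 0.38, lie above those of the other 6 lists, which reach 0.16.

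Markers of the cell types in the tissue were read beside these values. Neuron markers had median log2 ratios of 0.03, 0.01 and 0.06 at 2 h, 24 h and 7 d, with 0 of 5 past the threshold at any time, and a summed level between 2090 and 2225 FPKM in all 6 groups. Astrocyte markers had 0.15, -0.22 and 0.15, oligodendrocyte markers -0.08, -0.19 and 0.03, oligodendrocyte precursor markers 0.10, -0.11 and 0.15, microglial markers 0.04, -0.13 and -0.06, and endothelial markers 0.13, -0.06 and 0.14. Striatal neuron genes, of which 4 reached the minimum level, had 0.20, 0.05 and 0.10 and a summed level between 64.3 and 79.5 FPKM, mostly from Ppp1r1b. They went different ways, with log2 ratios of 0.38 at 2 h and 0.68 at 7 d for Adora2a, and -0.42 and -0.37 for Rgs9. The red blood cell genes were past the threshold and higher in cocaine at 2 h in 5 of 5 cases, with a median of 0.64 and a summed level of 323 FPKM in saline and 504 FPKM in cocaine, and their medians were 0.08 at 24 h and 0.25 at 7 d. Of the 5 choroid plexus genes 2 reached the minimum level, and the log2 ratios were -1.83, -0.66 and 4.11 for Ttr and 0.30, 0.07 and 0.08 for Kcnj13. Meningeal fibroblast markers had a median of 0.33 at 7 d, with 3 of 5 past the threshold, against 0.12 at 2 h and -0.21 at 24 h. The part of these cells in the Sprouty and Spred ratios was not tested.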

How the data were processed

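RNA-seq of mouse prefrontal cortex was read from 3 tables, 1 per time point. After trimming, the authors aligned reads by TopHat2 (2.0.12 in the submitters' processing notes), used those with a unique position, and compared the 2 groups of a time point in Cuffdiff, part of Cufflinks 2.2.1. The deposited FPKM is 1 value per group, pooled over 2 libraries by the authors. The tables also hold the authors' own fold changes, test statistics, p values, q values and significance marks, which were not used here. Their headers name the groups ambiguously (C_2H and 2H). Which column was saline was read from the headings of the study's supplementary tables. Values lay nearer to the order with saline first than to the swapped order for 450 of 454, 14 of 14 and 524 of 529 genes at 2 h, 24 h and 7 d. This checks the order of the columns, and not that the values are equal. The processing notes name GRCm38, and the methods mm9.

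Log2 ratios used a pseudocount of 0.1 FPKM. A name on several loci took the longest. Genes needed a mean of at least 1 FPKM over the 6 groups and a value above 0 and up to 1000000 in each. Transcript lengths were those of the longest GENCODE coding transcript, found for 84.0% of genes. Ratios past 25% were counted, without a test, and alternatives changed the pseudocount, filter, threshold, centring and locus. The genes named are the members, the listed genes past 1.5-fold, the 1 gene with the largest ratio in other lists and the genes nearest in pattern. Other listed genes (Igf1r, Fgf22, Crkl, Rps6ka2, Rasa1, Cbl, Etv1, Etv4, Etv5, Fgfr3, Kcnj13, Rgs9 and Ppp1r1b) were named after their values were seen. The members and lists were chosen with earlier results of these data known. The steps were tested on simulated data, with planted changes larger than most ratios of the members. This checks the code, and not the reliability of the ratios reported. Python 3.11.15, pandas 2.3.3, numpy 2.4.6 and matplotlib 3.10.9 were used.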

Additional observations from a re-analysis of the deposited data

How the results depend on the processing

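All values rest on 1 pooled FPKM per group, so that no library could be left out and no counting or replicate error is known. No paired analysis was possible because the columns are pooled over the replicates and carry no replicate number. The median log2 ratios of the members at 2 h, 24 h and 7 d kept their sign under each alternative run for them (pseudocount, centring, filter and locus) and moved by less than 0.1. At 24 h, however, the median fell from 0.11 to 0.04 with centring on genes of like transcript length. It was 0.06 with a mean of at least 5 FPKM. The choice of locus and the lifting of the filter could not move these medians, because each member had 1 locus and passed the minimum. Of 123 member ratios under alternatives, 117 moved by less than 0.1 and 6 by more, and no ratio past the threshold changed sign. The 6 were those of Spry3 and Spry4 under a pseudocount of 1 FPKM. Part of the 117 could not move by 0.1, namely those under the choice of locus and under centring on the median of all genes. That centring shifted each member by the median alone (0.02, 0.01 and -0.01 at 2 h, 24 h and 7 d). The counts of members past the threshold depended on its height and on the low genes. At 1.5-fold they were 2 of 7 at 2 h and 0 at 24 h and 7 d, and at 1.2-fold 2 at 24 h. With a mean of at least 5 FPKM, which left 4 members, they were 3, 0 and 1. A pseudocount of 0.01 FPKM gave 2 at 24 h, and 1 FPKM gave 1 at 7 d, Spry2, with Spry3 and Spry4 under the threshold. Centring on genes of like transcript length, for the 6 members with a length, gave 1 at 7 d. The pathway genes past the threshold, 15, 6 and 13 in the values reported, were 7, 3 and 2 at 1.5-fold, 23 at 2 h and 21 at 7 d at 1.2-fold, and 3 at 24 h with a mean of at least 5 FPKM. Of all genes, 1.76% were past 1.5-fold and higher in cocaine at 2 h. With centring on genes of like transcript length, 402 of 11008 genes were past the threshold and higher at 7 d, and 325 were lower. The shares of all genes under the remaining settings are not given, so the counts under them are not set against all genes.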

Other observations

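The genes whose 3 ratios lay nearest to the members' were sought among the 13101 genes, by Euclidean distance over the log2 ratios at 2 h, 24 h and 7 d. The mean of the 7 members was 0.51, 0.14 and 0.10. The 5 nearest genes were Pfkfb3, an enzyme gene that promotes glycolysis (0.52, 0.12 and 0.13, at a distance of 0.035), Rilpl1, Hmox1, the gene of heme oxygenase (0.52, 0.20 and 0.13), Pdp1 and Frmd6. Nearest to Spry4 alone was Dusp6 (1.198, 0.49 and 0.35, at a distance of 0.12), and nearest to Spry2 was Smad6, an inhibitor of BMP signaling (0.46, 0.12 and 0.47, at a distance of 0.059). The nearest genes were Sde2 for Spred1, Kcnk13 for Spred2, Crot for Spred3, Pcx for Spry1 and Bdh2 for Spry3. A distance over 3 untested ratios is a description.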
